A study of Mus musculus with 6 samples.

Results

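Abca1, Nsmaf and Sdcbp are 3 genes of lipid efflux, sphingolipid signalling and vesicle formation, taken by gene name from the 53546 gene features counted in each of 6 mouse RNA sequencing libraries. All 6 libraries are labelled C57BL/6 with no other allele or agent. Of them, 3 are labelled control and 3 spinal cord injury. As tissue the labels give spinal cord in one place and intervertebral disc in another, the series text speaks of retina from animals 21 days old, and no time after injury is given. Whether each library stands for its own animal is not stated. The p-values below therefore reflect the spread from library to library, which may be technical.

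ABCA1 is a membrane pump that hands cholesterol and phospholipid from the cell to lipid-poor apolipoproteins, and cells raise its transcription through the liver X receptors when sterols accumulate. In the nervous system it loads lipid onto apolipoprotein E made by glia, and after injury phagocytes use it to export cholesterol taken up with myelin debris. NSMAF, also called FAN, binds the receptor TNFR1 and couples it to neutral sphingomyelinase, the enzyme that makes ceramide from sphingomyelin. SDCBP, or syntenin, is an adaptor with tandem PDZ domains that binds the tails of syndecans and takes part in the formation of exosomes.

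A gene's name in these counts does not always mark reads of that gene, so each name was checked by position first. A feature is called name-stable here when at least 90% of its exonic bases in the files fall within the exons that GENCODE M21 gives to a gene so named, on coordinates of the mouse build GRCm38. Abca1, Nsmaf and Sdcbp have 100% of their bases on their own exons. Of all features 3.25% are name-stable (1741), and of the 755 features of chromosome 4 that end below 57 Mb 93.9% are.

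Abca1 lies on the minus strand of chromosome 4 from 53030787 to 53159895, with 50 merged exons and 10363 exonic bases. Nsmaf is on the minus strand of the same chromosome from 6396207 to 6454271, with 31 merged exons and 8368 exonic bases. Sdcbp is on the plus strand from 6365650 to 6408423, with 14 merged exons and 6904 exonic bases. Sdcbp and Nsmaf therefore run towards each other and their ends overlap. They share 78 exonic bases, from 6396207 to 6396284, which are 1.13% of the Sdcbp bases and 0.932% of the Nsmaf bases. The counting ignored strand and left out reads that overlap both genes, so the shared bases add to neither count.

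Of the 3 genes, 1 has an entry in the RefSeq promoter table (GRCm38.p6), Abca1. Its start region is shown because the level of Abca1 varied most between libraries and because its control by sterols is known to act there. The first sequence is the part of the table's window that lies before every annotated start of Abca1, chr4:53159989-53160145 on the minus strand, with an E-box (CACGTG) in capitals. The second, chr4:53159947-53159962 on the plus strand, matches a direct repeat with a spacer of 4 bases, the arrangement bound by liver X receptor and retinoid X receptor pairs, and the repeats are in capitals.
Abca1 upstream stretch: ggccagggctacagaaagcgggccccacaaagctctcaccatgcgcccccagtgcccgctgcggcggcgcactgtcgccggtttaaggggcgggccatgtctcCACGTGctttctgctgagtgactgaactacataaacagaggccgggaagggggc
Abca1 direct repeat: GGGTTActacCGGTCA

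The E-box begins 147 bases before the start of the gene in the table, and the direct repeat spans bases 67 to 52 before it. Searched on both strands of 27025 promoters of 300 bases, 1 for each gene, CACGTG is held by 7.24%. The letters NGGTNANNNNNGGTCA, in which N is any base, are held by 0.192% (52 promoters). That pattern was written with the known Abca1 element in view, so the share describes how rare the letters are and tests nothing. The counts do not measure binding at either match.

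Total counts were between 2385703 and 3921627 per library. Controls 1 and 2 stand apart from control 3 and the injury libraries in their markers. The 4 name-stable neuron markers read (Frrs1l, Gabbr2, Penk and Tac1) summed to 8.73 and 17.8 CPM in controls 1 and 2 and to between 2565 and 2851 CPM in the other 4 libraries, where CPM is a count scaled to a library total of 1000000. The 5 name-stable markers of kidney and transport epithelium (Slc13a1, Slc7a13, Acnat2, Atp6v0d2 and Aqp3) summed to 2766 and 1719 CPM in controls 1 and 2 and to at most 4.97 CPM in the others, with Slc7a13, Acnat2 and Aqp3 at 0 counts there. These 4 neuron markers are thus nearly absent from controls 1 and 2, and the labels do not settle which tissue each library holds. Abca1, Nsmaf and Sdcbp are therefore given for each library, and for injury against all 3 controls, against controls 1 and 2, and against control 3 alone.

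Abca1 was read in all 6 libraries and was highest in a control library. Controls 1, 2 and 3 held 538, 1228 and 447 CPM, with 95% Wilson intervals of 516 to 562, 1194 to 1263 and 422 to 473. Injury 1, 2 and 3 held 648, 593 and 486 CPM, with intervals of 620 to 678, 566 to 622 and 459 to 515. Control 2 is far above the other 5 libraries, control 3 is the lowest, and the groups overlap. Intervals cover counting error only, and in such bulk samples fewer cells of a type and less RNA per cell cannot be told apart.

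Nsmaf varied least. Controls 1, 2 and 3 held 236, 362 and 313 CPM of it, with intervals of 221 to 252, 344 to 381 and 292 to 335. In injury 1, 2 and 3 it stood at 275, 265 and 246 CPM, with intervals of 257 to 295, 247 to 285 and 227 to 267. The injury libraries lie within the range of the controls, with control 1 below all of them and controls 2 and 3 above.

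Sdcbp had its lowest values in controls 1 and 2. The 3 controls held 359.6, 362 and 607 CPM, with intervals of 341 to 379, 343 to 381 and 578 to 637. Injury 1, 2 and 3 held 603, 836.5 and 747 CPM, with intervals of 576 to 632, 804 to 871 and 713 to 782. Injury 1 lies just below control 3, and that is the single overlap between the groups.

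**Figure D1:**
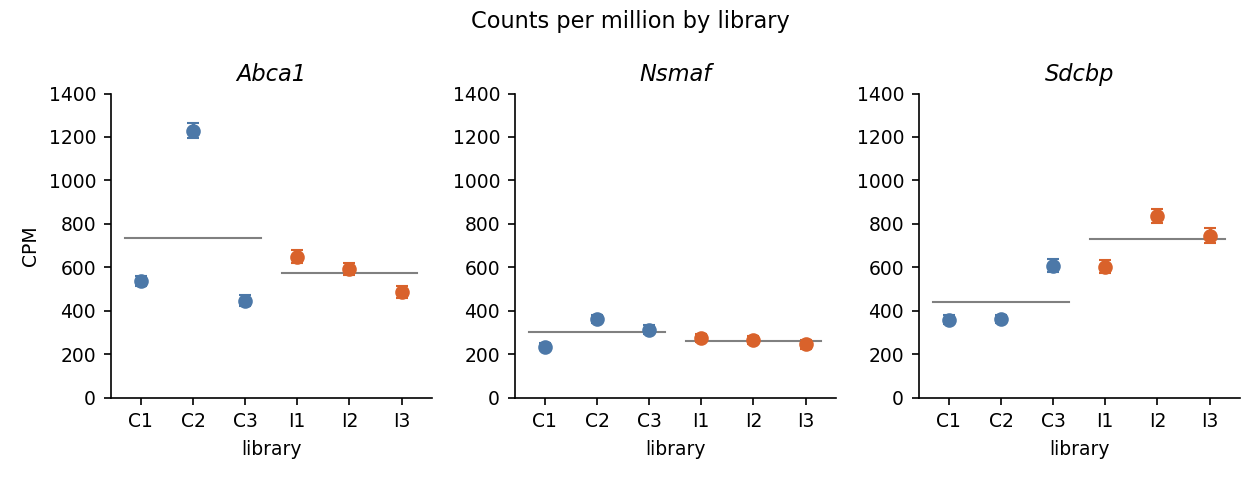
CPM of Abca1, Nsmaf and Sdcbp in controls 1 to 3 (C1 to C3, blue) and injury 1 to 3 (I1 to I3, orange), with 95% Wilson intervals as bars and group means as grey lines. Control 2 stands out for Abca1 at 1228 CPM, and controls 1 and 2 are the lowest libraries for Sdcbp.

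Injury averaged 576 ± 82.5 CPM of Abca1 (SD, n = 3) and control 738 ± 427 CPM (n = 3). For Nsmaf the means were 262 ± 14.9 CPM after injury and 304 ± 63.6 CPM in control. For Sdcbp they were 729 ± 118 CPM after injury and 443 ± 142 CPM in control. Among the injury libraries the coefficient of variation was 14.3% for Abca1, 5.67% for Nsmaf and 16.1% for Sdcbp, where counting alone would give 2.52%, 3.74% and 2.25%. The spread of Abca1 and Sdcbp between injury libraries thus exceeds counting error several times over, and that of Nsmaf is nearer to it.

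Counts per kilobase of exon allow the 3 genes to be set against each other. After injury the order was Sdcbp, Abca1, Nsmaf, at 106 ± 17.0, 55.6 ± 7.96 and 31.3 ± 1.78 CPM per kilobase (SD, n = 3 each). The ranges of these 3 genes over the injury libraries do not overlap. In control Abca1 averaged 71.2 ± 41.2, Sdcbp 64.1 ± 20.6 and Nsmaf 36.3 ± 7.60 CPM per kilobase. There the ranges of Abca1 and Sdcbp overlap, and their order differs by library, with Sdcbp to Abca1 at 0.442 in control 2 and 2.04 in control 3. The lowest Abca1 value (43.1, control 3) is level with the highest Nsmaf value (43.3, control 2). Within each library Abca1 was above Nsmaf, by 1.15-fold in control 3 to 2.74-fold in control 2.

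Ranks need no scaling between libraries. Among the 1741 name-stable genes, ordered by CPM from the highest, Sdcbp was at place 44, 43 and 41 in controls 1, 2 and 3 and at 45, 27 and 32 in the injury libraries. Abca1 was at place 27, 5 and 62 in the controls and at 38, 47 and 59 after injury. Nsmaf was at place 76, 42 and 95 in the controls and at 110, 118 and 125 after injury. A place in this order also moves with the other name-stable genes, many of which differed between these libraries, so it is no measure of Nsmaf alone.

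A ratio of 2 genes within a library needs no scaling either. Per kilobase, Sdcbp stood to Nsmaf at 1.85, 1.21 and 2.35 in controls 1, 2 and 3, with exact 95% intervals of 1.70 to 2.01, 1.12 to 1.30 and 2.16 to 2.56. In injury 1, 2 and 3 the ratio was 2.66, 3.82 and 3.68, with intervals of 2.44 to 2.89, 3.52 to 4.16 and 3.35 to 4.04. All 3 injury libraries are above all 3 controls, and control 3 is the control nearest to them. How many ratios of other gene pairs separate the groups in this way was not counted, so the separation is not set apart from theirs. The mean ratio was 3.39 ± 0.636 after injury and 1.80 ± 0.572 in control (n = 3 each), 1.88-fold higher. A two-sided exact permutation test gave p = 0.1, the smallest that 3 against 3 allows, and 0.3 when adjusted over the 3 ratios.

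Sdcbp stood to Abca1 at 1.00, 0.442 and 2.04 in the controls and at 1.40, 2.12 and 2.30 after injury (two-sided exact permutation p = 0.2, adjusted 0.3). Here control 3 is above injury 1. Abca1 stood to Nsmaf at 1.84, 2.74 and 1.15 in the controls and at 1.90, 1.81 and 1.60 after injury (two-sided exact permutation p = 0.8, adjusted 0.8). Injury 1, 2 and 3 thus lie between control 3 and control 2 in that ratio.

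**Figure D2:**
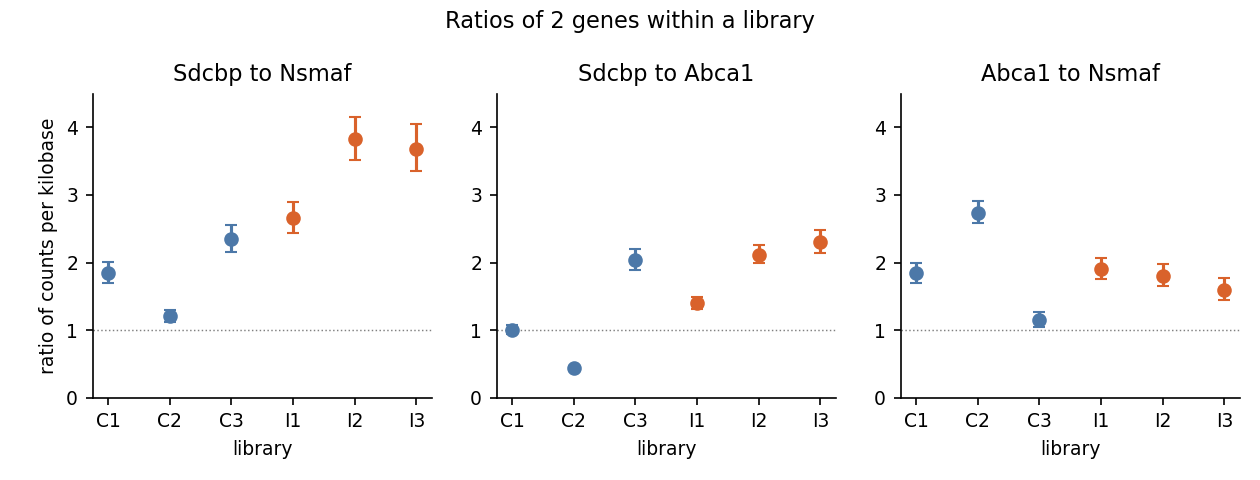
Ratio of counts per kilobase of 2 genes within each library, with exact 95% intervals from the counts and a dotted line at 1. For Sdcbp to Nsmaf the injury libraries (orange) lie between 2.66 and 3.82 and the controls (blue) between 1.21 and 2.35.

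The comparison of injury with all 3 controls follows the group labels. As controls 1 and 2 differ in their markers, injury and tissue content cannot be told apart in it. The test was the quasi-likelihood F test of edgeR, with adjusted p under 0.05 as the call. None of the 3 genes passed, and 0% of all 12646 tested features did. Of those features 3241 had an unadjusted p under 0.05 and none passed with limma-voom, while DESeq2 called 1503, none of them Abca1, Nsmaf or Sdcbp. The log2 fold change was -0.15 for Abca1 (SE 0.45, edgeR adjusted p 0.827), with a 95% interval from -1.24 to 0.93. It was -0.06 for Nsmaf (SE 0.32, edgeR adjusted p 0.907; interval from -0.82 to 0.70) and 0.83 for Sdcbp (SE 0.46, edgeR adjusted p 0.282; interval from -0.27 to 1.93). The intervals leave room for changes of over 1.5-fold either way in Abca1 and Nsmaf, so these values do not show that the genes stayed level. With 0 calls among all features, the lack of a call in this fit says nothing on whether a gene changed. In a fit on name-stable genes alone Abca1 was at -1.02, Nsmaf at -0.81 (interval from -1.54 to -0.08, edgeR adjusted p 0.226) and Sdcbp at 0.17, and none passed.

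Against controls 1 and 2 Sdcbp passed and Abca1 and Nsmaf did not in the fit on all features, and a fit on name-stable genes alone gave the opposite calls, as described below. Its log2 fold change was 1.48 (SE 0.31, edgeR adjusted p 0.00623), with a 95% interval from 0.73 to 2.23, and all 3 injury libraries were above both controls. In CPM the injury mean was 2.02-fold that of controls 1 and 2. In the same fit 66.8% of all 15320 features passed, 30.2% as higher and 36.6% as lower. Of the 511 name-stable genes tested 72.2% passed, 53.2% as higher and 19.0% as lower, so a call of this kind is near the background of these libraries. Abca1 had a log2 fold change of -0.05 (SE 0.28, edgeR adjusted p 0.892; interval from -0.73 to 0.63) and Nsmaf of 0.33 (SE 0.21, edgeR adjusted p 0.208; interval from -0.18 to 0.83).

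The sign for Abca1 and Nsmaf in that comparison turned on how the libraries were scaled. With TMM, the scaling used here, the median of all features was -0.20, and with library totals alone it was -0.73. With totals alone Nsmaf was at -0.19, Abca1 at -0.62 and Sdcbp at 1.02. The 511 name-stable genes had a median of 1.04 in the TMM fit, above Abca1 and Nsmaf and below Sdcbp. In a fit on name-stable genes alone the calls changed: Abca1 was at -1.15 (edgeR adjusted p 0.0255) and Nsmaf at -0.76 (edgeR adjusted p 0.0129), both passing as lower, and Sdcbp was at 0.40 and did not pass (edgeR adjusted p 0.215). That fit called 316 of its 511 genes, 146 as higher and 170 as lower, so calls are common in it. Which of the 3 genes are called here, and in which direction, thus depends on the set of features the libraries are scaled on. The low neuron markers and the high epithelial markers of controls 1 and 2 move with this comparison, and their part in the Sdcbp value was not tested.

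Against control 3 alone, the single control library is taken to have the same spread as the injury group. Abca1 was 1.45-fold, 1.33-fold and 1.09-fold the level of control 3 in injury 1, 2 and 3 (CPM ratios, exact 95% intervals 1.35 to 1.56, 1.23 to 1.43 and 1.00 to 1.18). The log2 fold change was 0.48 (SE 0.17, interval from 0.13 to 0.84), with an unadjusted p of 0.0093 and an edgeR adjusted p of 0.0834, higher in 3 of 3 injury libraries. It did not pass. Of the 13857 features tested 6.78% passed in this fit, 1.05% as higher and 5.72% as lower, and of the 477 name-stable genes 2.1% passed, 1.26% as higher and 0.839% as lower. Abca1 was at 0.42 without injury 1, at 0.63 without injury 3 and at 0.53 with DESeq2. Whether it was called turned on the setting, and with a single control library such calls are not weighed here.

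Sdcbp was 0.994-fold, 1.38-fold and 1.23-fold the level of control 3 in injury 1, 2 and 3 (exact intervals 0.928 to 1.06, 1.29 to 1.47 and 1.15 to 1.32). Its log2 fold change was 0.39 (SE 0.19, edgeR adjusted p 0.194), higher in 2 of 3 libraries. Without injury 1 it was at 0.53, and whether it was called turned on the setting too. Nsmaf was 0.880-fold, 0.848-fold and 0.787-fold the level of control 3 by library totals, below it in 3 of 3. Scaled by TMM its log2 fold change was -0.13 (SE 0.16, edgeR adjusted p 0.616; interval from -0.46 to 0.19). In the TMM fit against control 3 the name-stable genes tested had a median of 0.18 and all features one of -0.03. With library totals alone Abca1 was at 0.37 and Sdcbp at 0.26, and with upper quartile scaling they were at 0.40 and 0.30. Fitted on name-stable genes alone, Abca1, Sdcbp and Nsmaf were at 0.30, 0.20 and -0.32, and none passed.

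**Figure D3:**
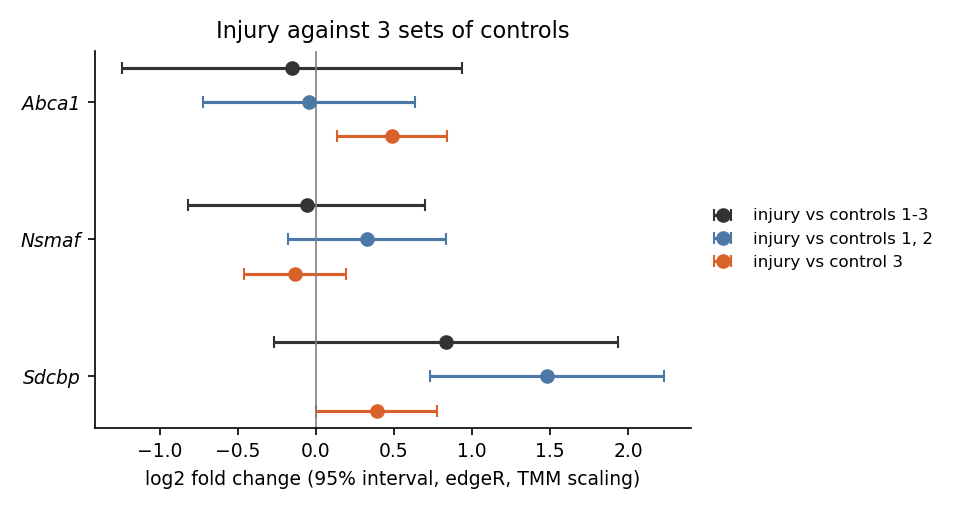
Log2 fold change of Abca1, Nsmaf and Sdcbp after injury against all 3 controls (black), controls 1 and 2 (blue) and control 3 (orange), as edgeR estimates with 95% intervals. The comparison of Sdcbp with controls 1 and 2, at 1.48, is the one that passed after adjustment in these fits on all features. In a fit on name-stable genes alone it did not pass, at 0.40.

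Most name-stable genes ranged more widely over these libraries than each of the 3 genes did. Over the 390 name-stable genes with a mean of at least 5 CPM that are no predicted models, the range of log2(CPM + 0.5) over the 6 libraries had a median of 2.09. It was 1.46 for Abca1, 1.22 for Sdcbp and 0.62 for Nsmaf, and 33.6%, 24.6% and 6.15% of the genes had a smaller range. Between injury and controls 1 and 2, 62.3% of these genes differed by over 1 on this scale in either direction. Sdcbp differed by 1.00, Abca1 by -0.51 and Nsmaf by -0.16. Between injury and control 3 the median size of the difference was 0.15. Abca1 was at 0.36, and 9.49% of the genes had a higher value. Nsmaf was at -0.26, and 91.8% had a higher value.

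**Figure D4:**
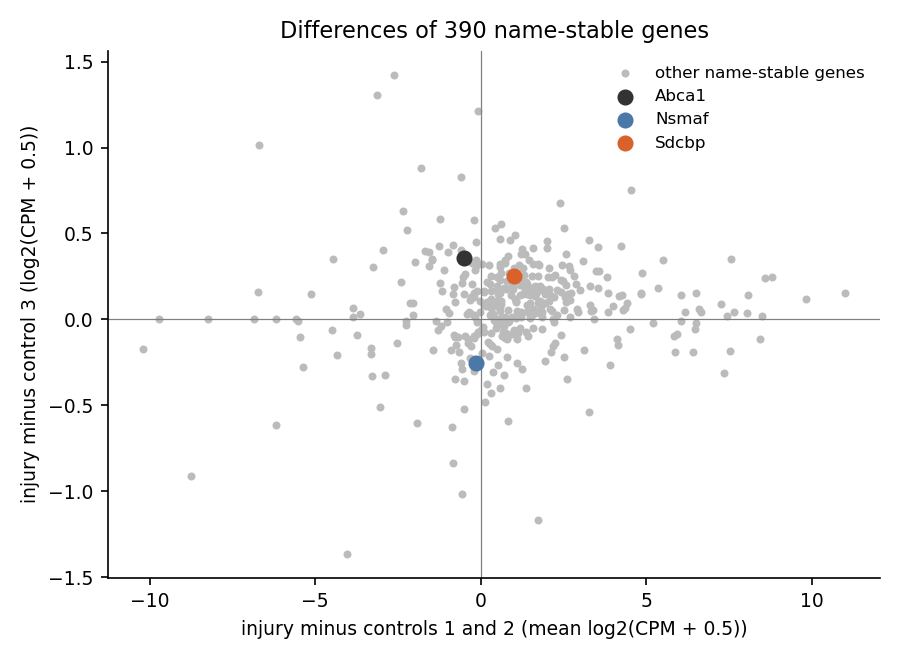
Difference of injury from controls 1 and 2 (horizontal) and from control 3 (vertical), in mean log2(CPM + 0.5), for 390 name-stable genes. Abca1 (black) is at -0.51 and 0.36, Nsmaf (blue) at -0.16 and -0.26, and Sdcbp (orange) at 1.00 and 0.25, while other genes reach far to either side.

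For each gene the 3 most similar name-stable genes were taken by the root mean square difference of centred log2(CPM + 0.5) over the 6 libraries. For Abca1 these were Fzd8, a Wnt receptor, at 0.11, Tstd2 at 0.21 and Ptgr1, a prostaglandin reductase, at 0.22. Fzd8 held 41.1, 84.7 and 29.4 CPM in controls 1, 2 and 3, against 39.6, 40.7 and 36.9 CPM in the injury libraries, so it too was highest in control 2 and lowest in control 3. For Nsmaf they were Ints8, of the Integrator complex, at 0.08, Rars2, a mitochondrial arginyl-tRNA synthetase, at 0.09, and Tex10 at 0.13. For Sdcbp they were Alkbh8, a tRNA methyltransferase, at 0.09, Wwp1, a ubiquitin ligase, at 0.11, and Vps50, of an endosomal tethering complex, at 0.11. Wwp1 held 528, 565 and 808 CPM in the controls and 831, 1043 and 971 CPM after injury. These are descriptions over 6 libraries that split in a pair and a foursome.

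Other genes of the same processes were read from lists. From here on, rose and fell mean called higher or lower in injury libraries than in controls 1 and 2. The markers of those controls differ, so injury and tissue content cannot be told apart in that comparison. Of the list of cholesterol and phospholipid efflux (52 genes), 7 are name-stable and 4 were tested. Against controls 1 and 2, Pon2, Nipsnap3b and Pon3 rose and Abca1 did not pass, where 53.2% of all name-stable genes tested were called higher. The median of the 4 was 1.34, beside 1.04 for name-stable genes and -0.20 for all features. Pon2, a lactonase of cell membranes, held 128 CPM in control 1, 87.7 in control 2 and 236 in control 3, against 260.2, 282 and 281 CPM in injury 1, 2 and 3. For injury against controls 1 and 2 its log2 fold change was 1.76 (SE 0.37, edgeR adjusted p 0.00613). Cyp7a1, the rate-limiting enzyme of bile acid synthesis in liver, had 0 counts in all 6 libraries. Against control 3 none of the 4 passed in edgeR, and Abca1 had the smallest adjusted p of them.

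Of 64 genes of sphingolipid and ceramide metabolism 3 are name-stable, and all were tested. Ugcg, which makes glucosylceramide, and Gba2, which breaks it down outside lysosomes, rose against controls 1 and 2, and Nsmaf did not pass, beside the 53.2% of name-stable genes called higher. Ugcg held 275 CPM in control 1, 126 in control 2 and 505 in control 3, against 516, 633 and 591 CPM in injury 1, 2 and 3. For injury against controls 1 and 2 its log2 fold change was 1.90 (SE 0.51, edgeR adjusted p 0.0154). Gba2 held 51.3 CPM in control 1, 113 in control 2 and 167 in control 3, against 208, 223 and 207 CPM in injury 1, 2 and 3. For injury against controls 1 and 2 its log2 fold change was 1.93 (SE 0.27, edgeR adjusted p 0.00137). Both were thus lowest in controls 1 and 2, where Nsmaf had its lowest and its highest value. Against control 3, Gba2 had a log2 fold change of 0.47 (SE 0.17, edgeR adjusted p 0.0883) and did not pass.

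Of 32 genes of syndecans, syntenin and extracellular vesicles 3 are name-stable, and Sdcbp, Rab2a and Chmp5 all rose against controls 1 and 2. As 53.2% of name-stable genes were called higher in that fit, this count is not set apart from them. Rab2a, a small GTPase of early secretory membranes, held 243 CPM in control 1, 149.7 in control 2 and 1141 in control 3, against 1080, 1350 and 1298 CPM in injury 1, 2 and 3. For injury against controls 1 and 2 its log2 fold change was 3.06 (SE 0.46, edgeR adjusted p 0.00177). Chmp5, a component of the membrane-cutting ESCRT-III complex, held 102 CPM in control 1, 106 in control 2 and 324 in control 3, against 319, 361 and 362 CPM in injury 1, 2 and 3. For injury against controls 1 and 2 its log2 fold change was 2.21 (SE 0.28, edgeR adjusted p 9.57e-04). Sdcbp had the smallest fold change of these, at 1.48, a difference that was not tested. None of the 3 passed against control 3.

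More list members can be read by overlying gene, by summing features that share at least 100 bases with exons and have at least 90% of those on 1 gene, whatever their name. Such sums may miss parts of a gene. They may also hold reads from bases of a feature that lie outside that gene's exons, since no share of the whole feature was required. Against controls 1 and 2, 59.6% of the 5642 genes tested in this reading passed, 28.1% as higher and 31.5% as lower. Of the efflux list 8 of 23 tested rose and 4 fell, of the sphingolipid list 7 of 22 rose and 4 fell, of the vesicle list 4 of 10 rose and 1 fell, and of the 4 genes of cholesterol synthesis tested 3 rose and 1 fell. The list medians were 0.63, 0.66, 0.27 and 1.65, where all genes had -0.08. Against control 3 none of these list genes passed, where 0.709% of all genes in this reading did, every one of those as lower. Against all 3 controls 0% of 5125 genes passed. The 3 genes were read from the same counts here. Abca1 was at -0.55 (edgeR adjusted p 0.143), Nsmaf at -0.17 (edgeR adjusted p 0.481) and Sdcbp at 0.98 (edgeR adjusted p 0.0320). Pon3, Nipsnap3b and Ugcg lost their calls in this reading (edgeR adjusted p 0.0679, 0.0845 and 0.0586).

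Fold changes against all 3 controls are not given for these genes, none of which passed there. The genes named next as having risen or fallen in this reading had edgeR adjusted p between 4.03e-04 (Abca2) and 0.0231 (Tm7sf2), all against controls 1 and 2. The words describe a difference from those controls, and a part of injury in it was not tested. Among lipid carriers, Abca2, a transporter of myelin-forming cells, rose to 418, 343 and 329 CPM in injury 1, 2 and 3 from 16.9 in control 1 and 32.4 in control 2, while control 3 held 317 CPM. Lrp1, a receptor for apolipoprotein E, rose to 1719, 1492 and 1420 CPM in injury 1, 2 and 3 from 319 in control 1 and 599 in control 2, while control 3 held 1164 CPM. Srebf2, the main regulator of cholesterol synthesis, rose to 301, 274 and 269.9 CPM in injury 1, 2 and 3 from 102 in control 1 and 157 in control 2, while control 3 held 281 CPM. Clu, an apolipoprotein of astrocytes, held 502 CPM in control 1, 1390 in control 2 and 991 in control 3, against 1617, 1358 and 1107 CPM in the injury libraries, and did not pass (edgeR adjusted p 0.187). Like Abca1, it was higher in control 2 than in control 1.

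In cholesterol synthesis Sc5d, which acts late in the pathway, rose against controls 1 and 2, from 14.4 and 18.1 CPM to 145, 192 and 181 CPM. Lss, which forms lanosterol, rose in the same comparison from 16.4 and 45.9 CPM to 117, 126 and 135 CPM. Control 3 held 199 CPM of Sc5d and 150.3 CPM of Lss, more than any injury library. Tm7sf2, a sterol reductase, rose against controls 1 and 2 from 12.6 and 11.7 CPM to 33.0, 25.6 and 27.7 CPM, and control 3 held 16.1 CPM. Sqle, an early rate-controlling enzyme of the same pathway, fell to 2.07, 6.32 and 3.35 CPM in injury 1, 2 and 3 from 25.2 in control 1 and 38.0 in control 2, while control 3 held 6.88 CPM. So against controls 1 and 2 members of the pathway went both ways.

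In sphingolipid synthesis Sptlc2, a subunit of the enzyme of the first step, fell to 96.0, 113 and 113 CPM in injury 1, 2 and 3 from 1468 in control 1 and 347 in control 2, while control 3 held 114 CPM. Asah2, a ceramidase, rose against controls 1 and 2 from 71.3 and 52.0 CPM to 193, 239 and 207 CPM, and control 3 held 199.6 CPM. Degs1, the desaturase that completes ceramide, did not pass (88.3, 29.6 and 205 CPM in the controls, 202, 224 and 213 CPM in the injury libraries, edgeR adjusted p 0.0571). Cers2, a ceramide synthase, did not pass either (117, 78.8 and 155 CPM in the controls, 154, 144 and 157 CPM in the injury libraries, edgeR adjusted p 0.241). Tnfrsf1a, which encodes the receptor that NSMAF binds and was named after its values were seen, fell to 30.3, 34.4 and 26.0 CPM in injury 1, 2 and 3 from 155 in control 1 and 125 in control 2, while control 3 held 14.9 CPM. Nsmaf itself did not pass in the same fit. Nr1h2, a liver X receptor named on the same footing, held 93.9, 83.1 and 52.4 CPM in controls 1, 2 and 3, against 72.6, 61.5 and 71.7 CPM in the injury libraries, and did not pass (edgeR adjusted p 0.236).

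Of the syndecans that SDCBP binds, Sdc2 rose to 339.7, 383 and 343 CPM in injury 1, 2 and 3 from 111 in control 1 and 119 in control 2, while control 3 held 333 CPM. Sdc4 held 457 CPM in control 1, 88.0 in control 2 and 123 in control 3, against 126, 137 and 122 CPM in the injury libraries, and did not pass (edgeR adjusted p 0.181). F11r, a junction protein, fell to 43.0, 32.3 and 22.2 CPM in injury 1, 2 and 3 from 183 in control 1 and 172 in control 2, while control 3 held 23.3 CPM. Cd9, a tetraspanin of exosomes, did not pass (107, 105 and 102 CPM in the controls, 169, 153 and 110.2 CPM in the injury libraries, edgeR adjusted p 0.276). A predicted gene in an intron of Sdcbp, Gm37689, shares 0 exonic bases with it. It had 62 and 45 counts in controls 1 and 2, 3 in control 3 and 3, 5 and 1 in the injury libraries. Sdcbp was lowest in controls 1 and 2, and a link between these features was not tested.

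**Figure D5:**
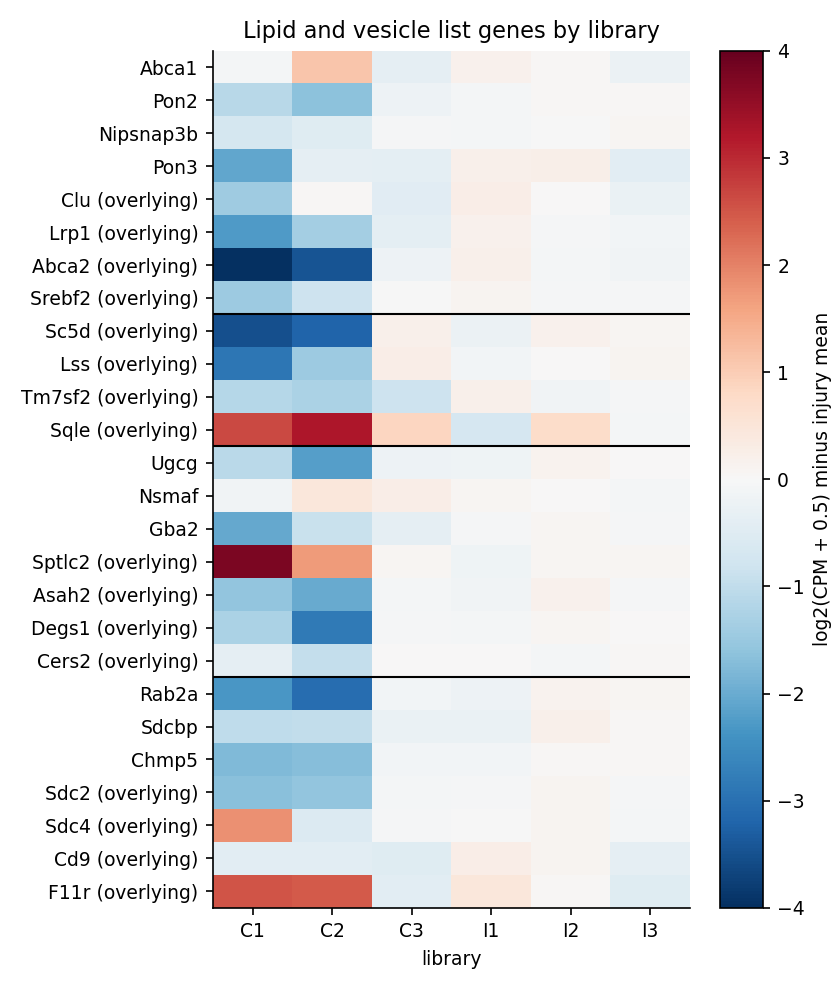
Log2(CPM + 0.5) of list genes in each library minus the mean of the 3 injury libraries, with colours limited to 4 in either direction and lines between the lists of efflux, cholesterol synthesis, sphingolipids and vesicles. Genes under 5 CPM in all libraries are left out. In control 1 Abca2 goes past the colour range, and in controls 1 and 2 Abca1 and Nsmaf stay nearer to the injury mean than Abca2, Sc5d or Rab2a.

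The control 2 value of Abca1 stands beside other values of that library. The name-stable collagen gene Col1a2 held 46.2, 1573 and 101 CPM in controls 1, 2 and 3, against 136, 114 and 380 CPM in the injury libraries. It is from a list of disc, cartilage and bone markers. By overlying gene, Col1a1 and Chad of that list were also highest in control 2, at 645 and 11.2 CPM. Col11a2 and Acan were not, at 4.08 and 0 CPM there, and Krt19 was at 0 CPM in all libraries. The 6 microglia and macrophage markers read by overlying gene summed to 81.1, 597 and 125 CPM in the controls and to 221, 161 and 93.9 CPM after injury. Col1a2 and the marker sum were highest in control 2, as Abca1 was. Of the 6 markers Ptprc, Lyz2 and Mrc1 were highest in control 2, at 244, 119 and 92.8 CPM. C1qc, Aif1 and Itgam were highest in injury 1, at 106, 31.0 and 35.4 CPM, with 78.3, 29.6 and 33.4 CPM in control 2. Of the 5 blood and endothelium markers read by overlying gene, Pecam1 and Tek were also highest in control 2, at 244 and 60.7 CPM. Vwf, Hbb-bs and Alas2 were highest in an injury library. The share of all genes that were highest in control 2 was not counted, and the part of these genes in the Abca1 value was not tested.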

How the data were processed

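The deposited counts are whole read pairs per gene feature. Per the file headers, featureCounts 2.0.1 made them from pairs whose mates both mapped, without chimeric pairs. Exons were grouped under their gene's name, strand was ignored, and a pair over several genes was not counted. Bowtie 0.12.2, mm8 and mm9 appear in the submitters' processing notes. The aligner and build behind the counts are not given in the sources used here. The authors' deposited series table repeats the counts and adds columns named FPKM, which were used in no test.

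The exons in the files were set against GENCODE M21 (GRCm38) without converting coordinates. Groups come from the sample group label and replicate numbers from the titles. CPM is the count over the library's total. Tests used edgeR 4.0.16 under R 4.3.3, with TMM scaling, the default filter of filterByExpr, the quasi-likelihood F test and Benjamini-Hochberg adjustment over all features, calls at 0.05. Models were fitted on all 6 libraries, on control 3 with the injury libraries, and, as a planned omission of control 3, on controls 1 and 2 with the injury libraries. Standard errors come from the F statistic. Alternatives used other scalings and filters, DESeq2 1.42.0, limma 3.58.1 (voom), a replicate block, name-stable genes only and omission of each library. Total counts of 2385703 to 3921627 per library limit low genes, and 3 counts are 0.765 to 1.26 CPM.

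The members, lists and tests were chosen with earlier results of these data known. The text names the 3 genes, for each the 3 name-stable genes most alike it (mean of at least 5 CPM, no predicted models), up to 6 name-stable members and 4 more by overlying gene of each list, and features that overlap a member. Tnfrsf1a, Nr1h2 and the marker genes are named outside that rule. Pon1, with under 1 CPM in all libraries, is not described further.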

Additional observations from a re-analysis of the deposited data

How the results depend on the processing

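With all 6 libraries, the count of called features was 0 in edgeR under every scaling and filter tried and in limma-voom, 1503 with DESeq2 and 7040 with limma-voom and sample quality weights, and between 0 and 10231 when 1 library was left out. The 10231 came without control 3. With the replicate block it was 0, and Abca1, Nsmaf and Sdcbp were at -0.09, -0.06 and 0.88. On name-stable genes alone they were at -1.02, -0.81 and 0.17, and none passed. The labels give no pairing of same-numbered libraries. Their deviations from the group means correlated at 0.07, -0.14 and 0.06. These values cannot decide on a pairing, because the split of controls 1 and 2 from control 3 dominates the control deviations. Leaving out 1 library gave log2 fold changes of -0.19 to 0.19 for Abca1, -0.079 to 0.33 for Nsmaf and 0.61 to 1.48 for Sdcbp. Without the filter Abca1 and Nsmaf turned to 0.15 and 0.20, with the filter of 1 CPM to 0.10 and 0.16, and Nsmaf turned to 0.051 with RLE scaling and with DESeq2. Sdcbp passed with sample quality weights, at 1.19. The ratio of Abca1 to Nsmaf after injury was 0.772 to 1.18 times that in control when 1 library was left out, the 1.18 without control 2. That of Sdcbp to Abca1, 1.67 with all libraries, was 1.27 without control 2 and 2.68 without control 3, the lowest and highest.

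Against control 3 the count of 939 features became 167 with DESeq2, 1660 with sample quality weights, 11 over name-stable genes (where the 3 genes were at 0.30, -0.32 and 0.20) and between 757 and 1995 without 1 injury library, the 1995 without injury 1. Abca1 was at 0.61 without the filter, 0.53 with DESeq2, 0.48 with limma-voom and 0.47 with its weighted form. Sdcbp was at 0.51 without the filter. Calls of both turned on these settings, and with a single control library they are not weighed. Without 1 injury library Abca1 was at 0.42 to 0.63, Nsmaf at -0.14 to -0.054 and Sdcbp at 0.35 to 0.53. Against controls 1 and 2, alternatives chosen after seeing the data turned Abca1 to 0.052 (RLE, DESeq2) and 0.034 (no filter), and Nsmaf to -0.0027 (upper quartile) and -0.19 (totals). A fit on name-stable genes alone sets their own typical change to 0 by construction. It called 316 of 511 genes, 146 as higher and 170 as lower. Abca1 was at -1.15 and Nsmaf turned to -0.76, both now passing as lower, and Sdcbp lost its call at 0.40. With the other alternatives Sdcbp kept its call there, at 1.02 to 1.56. The causes of the other changes were not tested.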

Other observations

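The authors' deposited table has columns named FPKM whose values, for all 53509 features in all 6 libraries, equal the CPM per kilobase divided once more by the library's total in units of 1000000 (0 values differ by more than 1 part in 1000000). The totals run from 2385703 to 3921627, so these columns lower the deeper libraries, controls 1 and 2, against the others. In the authors' deposited table the injury mean of Abca1 was 1.02-fold the control mean, where counts divided by the total once gave 0.781-fold. For Nsmaf the deposited columns gave 1.07-fold and single division 0.864-fold. For Sdcbp they gave 1.95-fold and 1.65-fold. The direction for Abca1 and Nsmaf thus turns between these scales. Against control 3, whose depth is near that of the injury libraries, the values lie close: 1.24-fold and 1.29-fold for Abca1, 0.811-fold and 0.838-fold for Nsmaf, and 1.17-fold and 1.20-fold for Sdcbp.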
